A study of Mus musculus with 26 samples.

Results

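Macrophages of the pancreatic islets of C57BL/6J (B6) mice were compared at 2 and 4 weeks of age, ages between which laboratory mice are usually weaned. The members are the 7 B6 libraries of these ages among the 26 of the series, 3 from 2 weeks and 4 from 4 weeks, and all genes counted in them were described. All 7 libraries came from female mice, with no genetic change or treatment named in the labels. Islets were dispersed, and live cells positive for CD45, F4/80 and CD11c and negative for B220 and CD90 were sorted, with islet cells of 6 to 14 mice pooled for each library. RNA was amplified before sequencing and reads were counted per gene. The other libraries came from B6 mice at 12 weeks and from the autoimmune diabetes-prone NOD strain at 2 to 12 weeks. A library is therefore a pool of animals. Each p-value below weighs a difference against the spread between the libraries fitted, which may be in part technical.

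Islets hold a small resident population of macrophages that sits beside the beta cells and the vessels. These cells present peptides to CD4 T cells on major histocompatibility complex (MHC) class II molecules. The alpha and beta chains of class II are made by H2-Aa and H2-Ab1 for the I-A molecule. H2-Eb1 encodes the beta chain of I-E, and its RNA alone does not show that an I-E molecule was formed. Cd74 encodes the invariant chain, which guides new class II molecules to the endosome and blocks their groove. H2-DM then exchanges the remaining invariant chain peptide for antigen, H2-O restrains H2-DM, and the proteases Ctss and Lgmn cut the invariant chain and antigens. Ciita is the master transcription coactivator of this gene set. Il2ra encodes CD25, the alpha chain of the receptor for interleukin 2, best known from regulatory and activated T cells.

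Of 13228 genes tested, 5 were called between the ages (edgeR quasi-likelihood test, Benjamini-Hochberg adjusted p under 0.05), which is 0.0378% of the genes. All 5 rose at 4 weeks and none fell. They were Cd74, H2-Ab1, H2-Aa, H2-Eb1 and Il2ra. At an unadjusted p under 0.05 there were 859 genes, 519 higher and 340 lower. The calls rested on each of the 4 week libraries: 0 remained without 4 week replicate 1 or without replicate 4, 2 without replicate 2 and 1 without replicate 3, while the log2 fold changes of the 5 genes ranged from 1.39 to 3.35 over these and the 2 week omissions. limma-voom with quality weights called Il2ra alone of the 5, with an adjusted p of up to 0.247 for the others.

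Promoter windows from the RefSeq promoter table are shown for the called genes H2-Aa, H2-Eb1 and Il2ra. Several of the called genes are classic targets of one promoter code, the X and Y boxes read by the CIITA complex. Each window runs 5′ to 3′ on the gene's strand from 250 bases before to 50 after the annotated start, in GRCm38.p6. Capitals mark the letters TGATTGG, a Y box core that holds CCAAT in reverse complement, and AACNGATG, an X box core, both searched on both strands. H2-Aa is at chr17:34287774-34288073 on the minus strand, H2-Eb1 at chr17:34305617-34305916 on the plus strand and Il2ra at chr2:11642542-11642841 on the plus strand.
H2-Aa: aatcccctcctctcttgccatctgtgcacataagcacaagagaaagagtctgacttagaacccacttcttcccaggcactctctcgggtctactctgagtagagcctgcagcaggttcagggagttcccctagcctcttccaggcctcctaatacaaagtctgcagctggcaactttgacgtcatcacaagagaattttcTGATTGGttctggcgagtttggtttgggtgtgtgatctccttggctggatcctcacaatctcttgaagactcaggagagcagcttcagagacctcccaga
H2-Eb1: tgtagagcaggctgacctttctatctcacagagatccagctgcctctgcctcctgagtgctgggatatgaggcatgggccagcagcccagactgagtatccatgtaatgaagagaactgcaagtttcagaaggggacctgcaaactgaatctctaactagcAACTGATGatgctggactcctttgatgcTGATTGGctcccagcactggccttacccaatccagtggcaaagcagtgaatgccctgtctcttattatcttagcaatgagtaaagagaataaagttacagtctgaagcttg
Il2ra: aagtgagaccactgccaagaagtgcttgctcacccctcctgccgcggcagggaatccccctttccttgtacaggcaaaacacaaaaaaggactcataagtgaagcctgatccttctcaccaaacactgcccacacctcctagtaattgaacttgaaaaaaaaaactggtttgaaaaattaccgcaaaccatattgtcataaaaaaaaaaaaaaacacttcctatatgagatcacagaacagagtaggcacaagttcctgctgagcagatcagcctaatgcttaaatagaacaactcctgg

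The H2-Eb1 window held both letter runs, with the X box core starting at base 162 and the Y box core at base 190, and the 2 runs did not overlap. The H2-Aa window held the Y box core at base 201, and the Il2ra window held neither. Among the 10 genes of the class II list with a window searched, 6 held TGATTGG (H2-Aa, H2-Eb1, H2-DMb1, H2-DMb2, H2-Oa and H2-Ob). AACNGATG was held by 4 (H2-Eb1, H2-DMb1, H2-DMb2 and Ctss). No window was searched for Cd74, H2-Ab1 or Ciita. Of all 32851 windows in the table, 7.82% held TGATTGG and 2.32% held AACNGATG. Such a match is a description of the letters and shows no binding in these cells. H2-DMb1 and H2-DMb2 held both cores and are listed below with the genes that were not called.

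The class II chains rose together at 4 weeks, by about the same fold. H2-Ab1 (protein-coding like the other called genes, GRCm38 chromosome 17, 34257689 to 34269419, plus strand) stood at 2887, 4549 and 2041 CPM (counts scaled to a common library total, with trimmed mean of M values scaling) in the 2 week libraries. At 4 weeks it stood at 9827, 10700, 12746 and 8344 CPM, and the lowest of these was above the highest 2 week library. The log2 fold change was 1.72 ± 0.24 (SE, n = 3 and 4), a fold of 3.29 (edgeR adjusted p = 0.0132).

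H2-Aa (chromosome 17, 34282744 to 34287823, minus strand), the partner chain, had 2400, 3554 and 2092 CPM at 2 weeks and 6472, 7489, 10306 and 7375 CPM at 4 weeks. Its log2 fold change was 1.56 ± 0.21 (edgeR adjusted p = 0.0117). H2-Eb1 (chromosome 17, 34305867 to 34316674, plus strand) had 2138, 3436 and 1799 CPM at 2 weeks and 7379, 8550, 11237 and 7377 CPM at 4 weeks, a log2 fold change of 1.81 ± 0.23 (edgeR adjusted p = 0.00731). In both genes the groups did not overlap, 2 week replicate 2 was the highest of its age and 4 week replicate 3 the highest of its own.

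Cd74 took up more of the counts than any other class II gene, on the CPM scale, which is not corrected for length. It (chromosome 18, 60803848 to 60812652, plus strand) had 7736, 10202 and 6104 CPM at 2 weeks and 23352, 26837, 37275 and 25146 CPM at 4 weeks. The groups did not overlap, and the log2 fold change was 1.81 ± 0.20, a fold of 3.51 (edgeR adjusted p = 0.00342). The summed level of the 13 genes of the class II list ran from 15458 to 25738 CPM at 2 weeks and from 51701 to 77130 CPM at 4 weeks.

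Il2ra (chromosome 2, 11642807 to 11693193, plus strand) had the largest fold of the 5. It stood at 97.6, 199 and 70.9 CPM at 2 weeks and at 819, 1053, 805 and 805 CPM at 4 weeks. The groups did not overlap, and the log2 fold change was 2.83 ± 0.33, a fold of 7.11 (edgeR adjusted p = 0.00342).

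The other chains of the interleukin 2 receptor were looked up after Il2ra had been seen. Il2rb, the beta chain, had 18, 47 and 0 counts at 2 weeks and 2, 0, 0 and 0 counts at 4 weeks, too few to be tested. Il2rg, the gamma chain shared with other cytokine receptors, had 37.9, 66.1 and 46.1 CPM at 2 weeks and 135, 120, 75.0 and 40.8 CPM at 4 weeks, and the groups overlapped (log2 fold change 0.89 ± 0.46, edgeR adjusted p = 0.833). The T cell receptor constant genes Trbc1 and Trbc2 were at 0 counts in all 7 libraries.

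**Figure D1:**
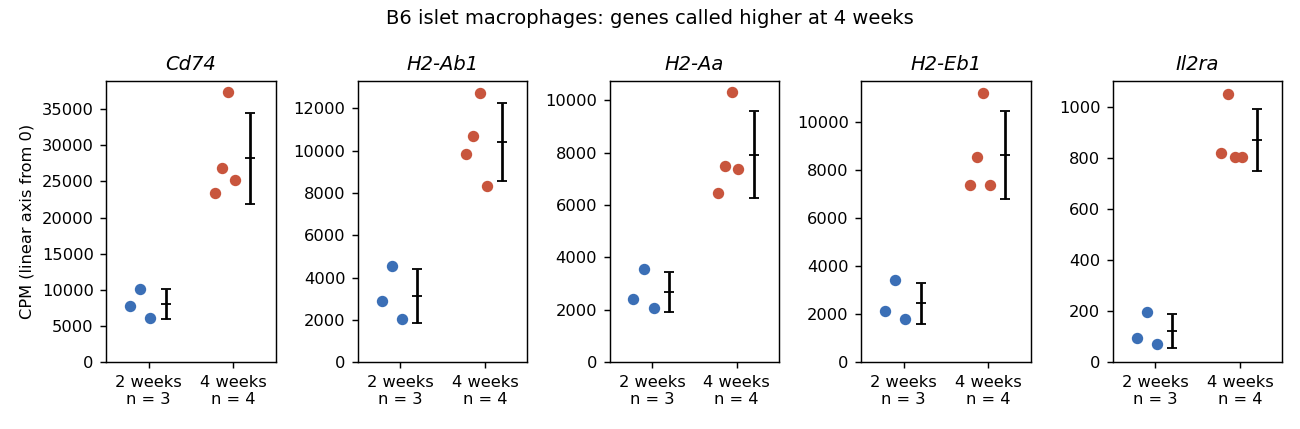
CPM (linear axis from 0) of the 5 genes called higher at 4 weeks, with 1 point per library (3 at 2 weeks, 4 at 4 weeks) and the mean ± SD beside them in black. In each gene every 4 week library lies above every 2 week library, and the fold is largest in Il2ra.

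Beyond these chains no gene of the class II list was called. All 13 members were tested, 4 were called higher and 0 lower, and the list's median log2 fold change was 1.03 beside 0.13 over all genes tested. In 9 members every 4 week library lay above every 2 week library, beside 4.01% of all genes tested. Of the 13 members 12 had a mean of at least 20 CPM, a level at which the share was 9.11%. Cd74, H2-Aa, H2-Ab1, H2-Eb1, Ctss and Lgmn had means above 500 CPM, where it was 42.6%. Every 4 week library was below every 2 week library in no member, beside 6.22% of all genes. The list was chosen with earlier results of these data known, so its direction is no independent evidence.

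Among the peptide exchange factors, H2-DMa had 276, 372 and 272 CPM at 2 weeks and 557, 397, 914 and 706 CPM at 4 weeks (log2 fold change 1.07 ± 0.27, edgeR adjusted p = 0.345). H2-DMb1, its partner chain, had 118, 264 and 140 CPM against 351, 307, 401 and 361 CPM (1.03 ± 0.29, edgeR adjusted p = 0.345). Neither pair of groups overlapped, yet neither difference passed the threshold. Reads of its close copy H2-DMb2 may be split with H2-DMb1. H2-DMb2 was low, at 9.12, 20.6 and 12.2 CPM against 8.71, 53.3, 5.25 and 0.57 CPM, with a log2 value of 0.28 whose sign differed between scalings.

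H2-Ob, a chain of the H2-DM inhibitor, had 16.8, 38.6 and 22.1 CPM at 2 weeks and 50.7, 67.0, 53.8 and 59.6 CPM at 4 weeks (log2 fold change 1.16 ± 0.50, edgeR adjusted p = 0.694). H2-Oa, the other chain, ranged from 12.8 to 41.9 CPM at 2 weeks and from 8.93 to 87.9 CPM at 4 weeks, and the groups overlapped. Among the proteases, the log2 fold change of Ctss was 0.41 ± 0.19 and that of Lgmn 0.32 ± 0.15, and the thiol reductase gene Ifi30 had -0.12 ± 0.26. None of these was called.

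Ciita had 78.7, 102 and 68.2 CPM at 2 weeks and 89.7, 210, 143 and 220 CPM at 4 weeks. One 4 week library fell within the 2 week range, and the log2 fold change of 1.00 ± 0.36 was not called (edgeR adjusted p = 0.523).

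The 4 week libraries lay farther from each other than the 2 week libraries did. The median gene had an SD of log2 CPM of 0.54 among the 2 week libraries and 1.46 among the 4 week libraries, and 87.1% of genes tested had the larger SD at 4 weeks. Spearman correlations over genes were 0.869 to 0.909 between 2 week libraries and 0.666 to 0.760 between 4 week libraries. Genes with at least 1 count numbered 21416 to 22252 per library at 2 weeks but 14152 to 17839 at 4 weeks, although the 4 week totals were higher (9752680 to 11349106 counts against 7932056 to 8420498). With every library thinned to 7932056 counts the ranges were 21416 to 22096 and 13633 to 17195.

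Abundant genes were repeatable at both ages, which is where the called genes lie. Among the 209 genes with a mean of at least 500 CPM, the median SD was 0.23 at 2 weeks and 0.26 at 4 weeks. Among the 3963 genes between 5 and 20 CPM it was 0.62 and 2.07. Direction moved with level too. In 42.6% of the genes of at least 500 CPM every 4 week library was above every 2 week library, and in none was every one below, with a median log2 fold change of 0.42. Below 2 CPM the shares were 0% and 19.1%, the median was -0.91, and 80.6% of genes had no count in at least 1 of the 4 week libraries.

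The 5 called genes lay between 550.0 and 19522 CPM on average, and their log2 fold changes of 1.56 to 2.83 stood above the median of 0.42 of their level. The part of level and of the lower number of genes detected in the uncalled differences was not tested. Scaling by abundant genes, an alternative chosen after seeing the data, moved the median of all genes from 0.13 to -0.17 and upper-quartile scaling moved it to -0.11. The 5 genes had log2 fold changes of at least 1.25 under each scaling tried.

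**Figure D2:**
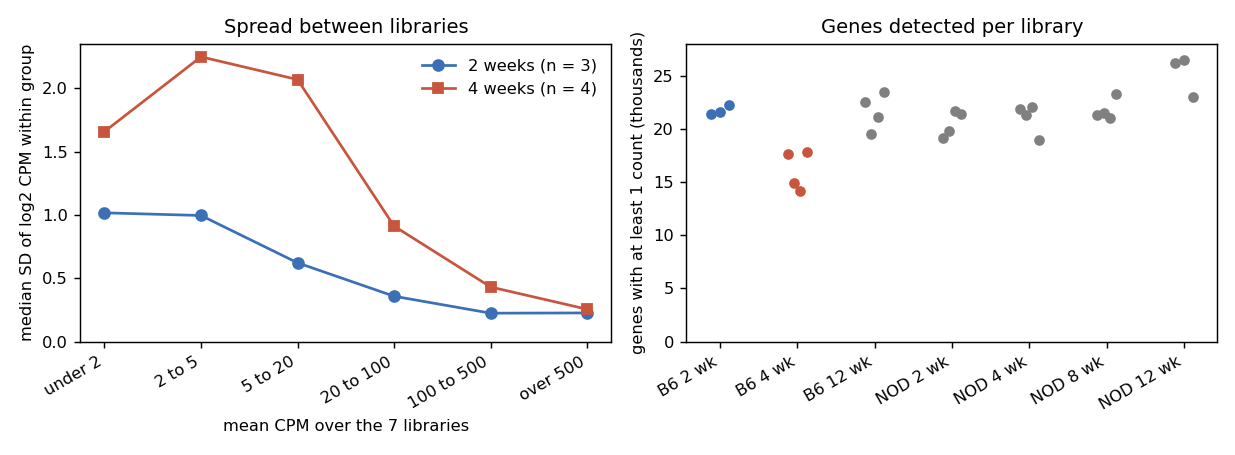
Left, the median SD of log2 CPM within each age against the mean CPM of genes (6 level bins). Right, the number of genes with at least 1 count in each of the 26 libraries by strain and age; the 4 week B6 libraries sit between 14152 and 17839, below every other library.

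**Figure D3:**
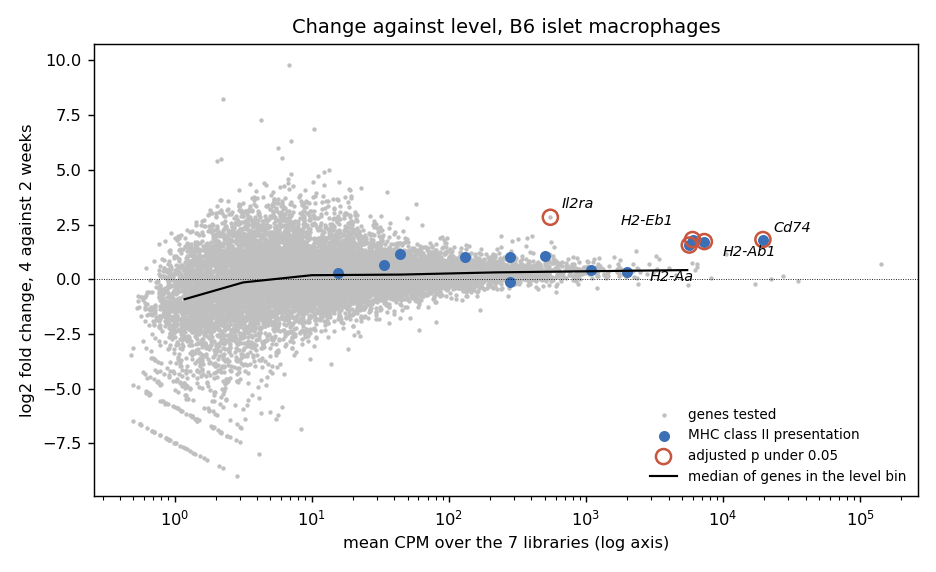
Log2 fold change (4 against 2 weeks) against the mean CPM over the 7 libraries (log axis), with 1 point per gene tested, the class II list in blue, called genes ringed and the median of each level bin as a line. The called genes lie at the abundant end, where the cloud is narrow, and the widest differences belong to low genes that were not called.

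Markers of the sort were present at both ages. Ptprc, which encodes CD45, had 768 to 1065 CPM at 2 weeks and 957 to 1311 CPM at 4 weeks. Adgre1 (F4/80) had 382 to 548 and 285 to 602 CPM, and Itgax (CD11c) had 592 to 822 and 767 to 1242 CPM. These levels are in part set by the gate. The core macrophage list had 20 members tested and 0 called, a median of 0.45 (0.13 over all genes), and 6 members with every 4 week library above every 2 week library against 1 below. Over all genes tested these shares were 4.01% and 6.22%, and among genes of 100 to 500 CPM 15.5% were above.

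B cells and dendritic cells also carry class II, so some of their defining markers are given beside it. Ms4a1 had 2 to 36 counts at 2 weeks and 0 to 3 at 4 weeks, Cd79a 0 to 4 and 0 to 26, and Pax5 0 to 10 and 0. Blk had 0 to 4 and 0 counts, and Jchain 1 to 5 and 0 to 9. Fcrla had 17, 14 and 9 counts at 2 weeks and 0, 3, 0 and 5 at 4 weeks. Every 4 week library was below every 2 week library for Fcrla, as in 19.1% of genes below 2 CPM. Some other members of the list were higher or varied more. Cd79b, a chain of the B cell receptor complex, had 239, 223 and 290 counts at 2 weeks and 51, 81, 419 and 216 at 4 weeks, highest in replicate 3, the library with the highest class II chains. Igkc had 343 counts in 4 week replicate 2 and 0 in the other 6 libraries. Ighm, the heavy chain gene of IgM, had 289, 444 and 536 CPM at 2 weeks and 643, 926, 640 and 719 CPM at 4 weeks (log2 fold change 0.79 ± 0.24, edgeR adjusted p = 0.366). Over the 12 genes of the B and plasma cell list 4 were tested and 0 called, Iglc2 was at 0 in all 7 libraries, and the summed level was 317 to 572 CPM at 2 weeks and 654 to 980 CPM at 4 weeks. The groups did not overlap, and Ighm made up most of that sum. The part of B cell RNA in the class II result was not tested.

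Of the 13 dendritic cell genes 10 were tested and 0 called. Their summed level was 144 to 273 CPM at 2 weeks and 189 to 409 CPM at 4 weeks, so the ranges overlapped. Flt3 had 62, 47 and 36 counts at 2 weeks and 112, 309, 5 and 16 at 4 weeks, and Zbtb46 had 85, 60 and 51 against 2, 2, 0 and 95. Xcr1 had 5, 4 and 36 against 83, 1, 0 and 3 counts. Siglech, a marker of plasmacytoid dendritic cells, had 47.9, 70.2 and 30.3 CPM against 84.6, 104, 135 and 77.1 CPM, without overlap and not called (log2 fold change 1.02, edgeR adjusted p = 0.629). Fscn1 of the same list went the other way, with 72, 109 and 29 counts against 12, 13, 0 and 6. Every 4 week library was below every 2 week library for Fscn1, which was not called (log2 fold change -3.09, edgeR adjusted p = 0.86). Clec9a had 11, 253 and 25 counts against 3, 0, 121 and 209. Replicate 3 of 4 weeks, with the highest Cd74, H2-Ab1, H2-Aa and H2-Eb1, had the highest summed level (409 CPM) and Siglech of the 7 libraries, and 5, 0 and 0 counts of Flt3, Zbtb46 and Xcr1. Bst2, also in that sum, had 686, 996 and 709 counts at 2 weeks and 558, 658, 2236 and 562 at 4 weeks, highest in the same replicate 3. The part of dendritic cell RNA in the class II result was not tested. In bulk libraries a change in the number of cells of a type and a change in RNA per cell cannot be told apart.

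T cell genes summed to 100 to 135 CPM at 2 weeks and 36.4 to 85.6 CPM at 4 weeks over the 15 listed, with Cd4, which some macrophages also carry, as the largest part in each library. Cd4 had 124, 91.4 and 103 CPM at 2 weeks and 25.7, 36.0, 40.6 and 76.0 CPM at 4 weeks, separated but not called (log2 fold change -1.25, edgeR adjusted p = 0.464). Cd3e had 9, 0 and 1 counts at 2 weeks and 85, 0, 0 and 1 at 4 weeks. Other T cell genes had counts in single 4 week libraries: Cd5 had 10, 1, 145 and 15, Bcl11b 2, 99, 3 and 56, and Cd8a 0, 69, 0 and 1. At 2 weeks Cd5 had 36, 17 and 2 counts, Bcl11b 15, 34 and 23, and Cd8a 1, 0 and 37. The part of T cell RNA in the Il2ra result was not tested.

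Islet endocrine RNA was present at both ages. The summed level of its 20 genes was 1116 to 1884 CPM at 2 weeks and 1097 to 1454 CPM at 4 weeks, and Ins2, an insulin gene, had 315, 651 and 997 CPM against 832, 488, 814 and 528 CPM. Of its 16 members tested 0 were called, the median log2 fold change was -0.78, and 5 (Neurod1, Chgb, Chga, Scg2 and Pcsk2) had every 4 week library below every 2 week library, beside 6.22% of all genes. These 5 had means below 10 CPM. Higher members went both ways. Sst had 36.5, 19.2 and 46.3 CPM at 2 weeks and 69.5, 6.24, 250 and 195 CPM at 4 weeks, with overlap (1.94 ± 0.81, edgeR adjusted p = 0.670). Iapp had 159, 463 and 569 counts against 846, 285, 696 and 825. Gcg had 457, 108 and 216 CPM against 22.9, 264, 36.0 and 67.9 CPM, with overlap (-1.41 ± 0.67, edgeR adjusted p = 0.795). With the mean log2 level of endocrine and acinar genes as a covariate, Cd74, Il2ra and the class II chains were no longer called. Their log2 fold changes were 1.33 to 2.33 and the edgeR adjusted p-values 0.180 to 0.838. Each gene had equal weight in this mean, low genes included, so it is not a measure of the amount of endocrine RNA alone. The part of the lower number of genes detected at 4 weeks in it was not tested. The summed level of the acinar list was at most 29.3 CPM in any library.

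No other list had a called member, and the values that follow describe genes below the threshold. The lysosome list came nearest in count, with 23 members tested, a median of 0.50, and 10 members with every 4 week library above every 2 week library and 0 below. All 23 had a mean of at least 20 CPM, a level at which 9.11% of all genes were separated upward, and above 500 CPM the share was 42.6%. Ctsb, the protease cathepsin B, had 2526, 1995 and 1786 CPM at 2 weeks and 2767, 4572, 3485 and 2996 CPM at 4 weeks (log2 fold change 0.72 ± 0.20, edgeR adjusted p = 0.345). Psap, the precursor of the saposins, had a log2 fold change of 0.55 ± 0.16 and Hexa, a subunit of hexosaminidase, 0.92 ± 0.26, both with an edgeR adjusted p of 0.345.

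The genes named next had, with Dnajb1 described below, the smallest adjusted p-values among those not called. Mmp12, macrophage elastase, had 328, 359 and 189 CPM at 2 weeks and 757, 774, 899 and 792 CPM at 4 weeks (log2 fold change 1.46 ± 0.24, edgeR adjusted p = 0.0569). Fth1, the ferritin heavy chain, had 1916, 2136 and 2032 CPM against 3590.3, 3883, 5451 and 3834 CPM (1.05 ± 0.18, edgeR adjusted p = 0.0658). Csf2ra, the alpha chain of the GM-CSF receptor, had 542, 509.9 and 459 CPM against 1184, 1043, 1049 and 856 CPM (1.04 ± 0.19, edgeR adjusted p = 0.106). Apbb2, an adaptor of the amyloid precursor protein, had 169, 118 and 84.0 CPM against 359, 314, 422 and 543 CPM (1.73 ± 0.30, edgeR adjusted p = 0.0685). In these 4 genes the groups did not overlap.

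Apoe, the lipid carrier, had 7536, 4364 and 6903 CPM at 2 weeks and 13707, 12449.9, 18148 and 10752 CPM at 4 weeks (log2 fold change 1.13 ± 0.21, edgeR adjusted p = 0.120). Lyz2, lysozyme M, had 368, 187 and 166 CPM against 854, 708, 1158 and 445 CPM (1.72 ± 0.34, edgeR adjusted p = 0.169). Reads of its close copy Lyz1 may be split with it. Both genes were separated between the ages. The lipid-associated and phagocytic list as a whole had a median of 0.41. Of its 22 members 4 were all above and 2 all below, beside 4.01% and 6.22% of all genes tested. Of the 15 members with a mean of at least 20 CPM, 4 were all above and 1 all below. At that level the shares of all genes were 9.11% and 1.86%, and above 500 CPM 42.6% were all above.

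Stress and immediate early genes, which also respond to cell dissociation, had a median of 0.55 over 23 members, with 6 all above and 0 all below. Of the 23, 21 had a mean of at least 20 CPM, where 9.11% of all genes were all above. Among genes of at least 500 CPM that share was 42.6%. Dnajb1, a heat shock co-chaperone, had 145, 176 and 69.5 CPM at 2 weeks and 518, 595, 372 and 349.8 CPM at 4 weeks (log2 fold change 1.82 ± 0.33, edgeR adjusted p = 0.0989). Hspa1b, an inducible HSP70 gene nearly identical to Hspa1a, had a log2 fold change of 1.96 ± 0.42 (edgeR adjusted p = 0.205). Replicate 3 of 2 weeks was lowest in both.

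The chemokine genes Ccl3 and Ccl4 had log2 fold changes of 1.13 ± 0.27 and 0.98 ± 0.25 (edgeR adjusted p = 0.312 and 0.345). Cxcl10, an interferon-induced chemokine, had 58.1, 144 and 58.2 CPM at 2 weeks and 21.2, 22.5, 24.9 and 34.6 CPM at 4 weeks (-1.75 ± 0.48, edgeR adjusted p = 0.345). The interferon-gamma response list had a median of -0.28 over 19 members, and the type I interferon-stimulated list a median of 0.04 over 27. Neither list had a called member.

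Mertk, a receptor for the uptake of dying cells, had 203, 100.5 and 118 CPM at 2 weeks and 19.9, 51.1, 17.6 and 57.6 CPM at 4 weeks (log2 fold change -1.94 ± 0.48, edgeR adjusted p = 0.315). Mrc1, the mannose receptor CD206, had 136, 57.5 and 121 CPM against 47.3, 48.8, 52.6 and 72.5 CPM, with overlap (-0.92 ± 0.39, edgeR adjusted p = 0.694). Every 4 week library was below every 2 week library for Mertk but not for Mrc1.

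The cell cycle list had 32 members tested, 0 called, a median of -0.69 and 6 members with every 4 week library below every 2 week library. Its best-covered genes overlapped between the ages: Mki67, a proliferation marker, had 221, 374 and 461 CPM at 2 weeks and 159, 375, 188 and 115 CPM at 4 weeks. Of the 12 members with a mean of at least 20 CPM, 1 had every 4 week library below. The other 5 such members had means between 5 and 20 CPM, where 4.95% of all genes tested had every 4 week library below and 1.21% had every one above.

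**Figure D4:**
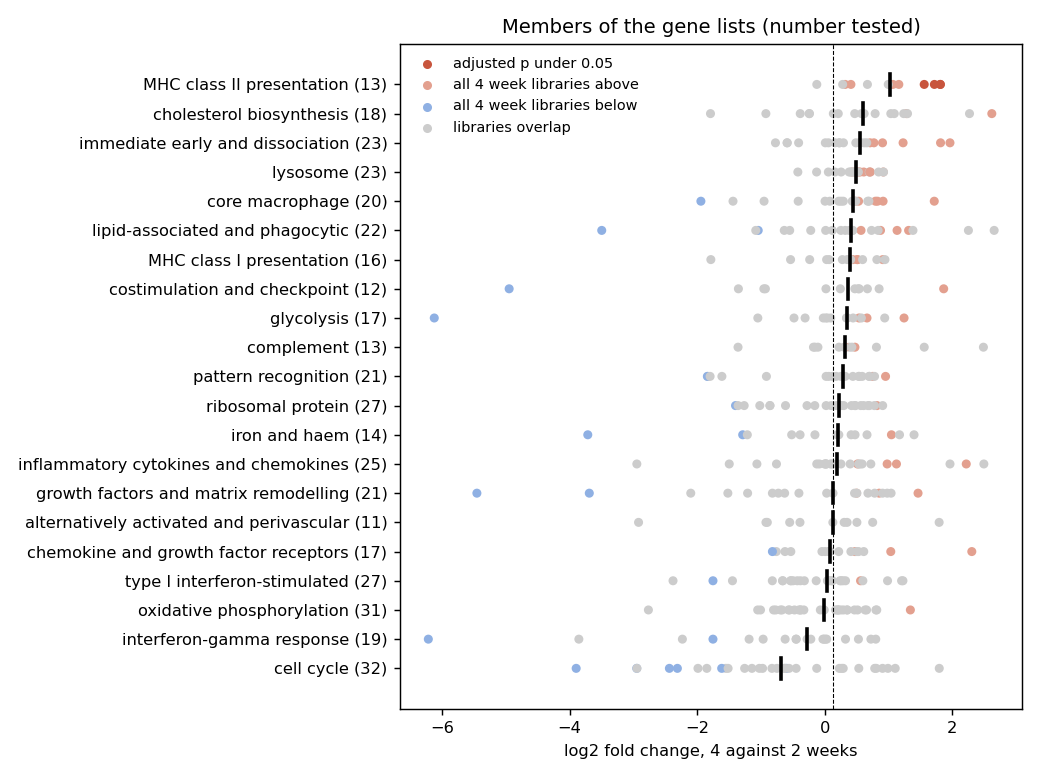
Log2 fold change (4 against 2 weeks) of every tested member of the 21 gene lists, 1 point per gene, coloured by whether the gene was called or its libraries overlapped, with the list median as a bar and the median of all genes as a dashed line. Called members occur in the MHC class II presentation list alone, where 4 of 13 were called.

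The same ages in NOD mice share no library with these groups and show whether the 5 genes moved in a second strain. All 5 were called higher there too, among 85 genes called higher of 13081 tested (0.650%). Cd74 had 2940 to 4187 CPM in the 4 NOD libraries of 2 weeks and 8048 to 8538 CPM in the 4 of 4 weeks, a log2 fold change of 1.17 ± 0.11 (edgeR adjusted p = 7.6e-05). Il2ra had 7.95 to 29.2 CPM at 2 weeks and 58.2 to 97.6 CPM at 4 weeks (2.01 ± 0.31, edgeR adjusted p = 0.00398).

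The class II chains H2-Ab1, H2-Aa and H2-Eb1 had log2 fold changes of 1.35 ± 0.13, 0.97 ± 0.14 and 1.26 ± 0.15 in NOD (edgeR adjusted p = 7.6e-05, 0.00236 and 0.000845). Each estimate was smaller in NOD than in B6. The differences in log2 fold change, B6 minus NOD, were 0.68 ± 0.23 for Cd74, 0.84 ± 0.46 for Il2ra, 0.59 ± 0.29 for H2-Eb1, 0.62 ± 0.26 for H2-Aa and 0.40 ± 0.28 for H2-Ab1. None passed the test of the difference (edgeR adjusted p = 0.302 to 0.667), which does not show that the strains changed alike.

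Of 16479 genes tested for a difference between the strains in this step, 2 were called (0.0121%), beside 1698 at an unadjusted p under 0.05. Both were named after their values were seen. Sparc, a secreted matrix protein, had 26.6, 27.7 and 21.1 CPM at 2 weeks and 62.3, 58.1, 15.2 and 25.5 CPM at 4 weeks in B6, with overlap and no call (0.68 ± 0.63, edgeR adjusted p = 1.00). In NOD it fell from 475, 465, 437 and 402 CPM to 69.3, 57.2, 37.9 and 38.7 CPM (-3.13 ± 0.18, edgeR adjusted p = 3.02e-07). The difference was 3.83 ± 0.50 (edgeR adjusted p = 0.00427).

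Chaf1a, a subunit of the chromatin assembly factor that works at replication forks, had 135, 263 and 155 counts at 2 weeks in B6 and 1, 1, 1 and 3 counts at 4 weeks. In NOD it had 8.87 to 19.8 CPM at 2 weeks and 6.47 to 15.6 CPM at 4 weeks. The difference in log2 fold change was -6.37 ± 0.95 (edgeR adjusted p = 0.0160), while within B6 the gene was not called (-6.85 ± 1.36, edgeR adjusted p = 0.169). It lies in the level range of 5 to 20 CPM, where 18.6% of genes had no count in at least 1 of the 4 week B6 libraries and 1.51% in at least 1 of the 2 week libraries. The part of that loss in the Chaf1a difference was not tested. Without B6 2 week replicate 3 neither Sparc nor Chaf1a was called (edgeR adjusted p = 0.0620 and 0.0632). Chaf1a was also not called without B6 2 week replicate 2, any 1 of the NOD 2 week libraries, or NOD 4 week replicate 1 or 2 (edgeR adjusted p up to 0.149).

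**Figure D5:**
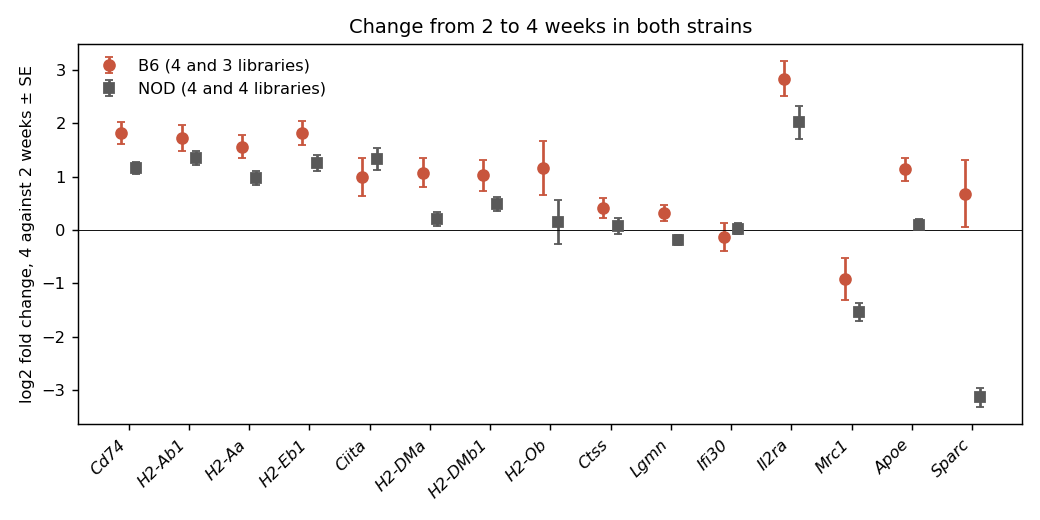
Log2 fold change from 2 to 4 weeks with its SE in B6 (orange circles, 4 and 3 libraries) and NOD (grey squares, 4 and 4 libraries) for class II genes, Il2ra, Mrc1, Apoe and Sparc. The called B6 genes lie above 0 in both strains, and Sparc is the gene whose difference between the strains passed the test.

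Scaled together over all 26 libraries, the 5 genes were placed against the adult B6 libraries, as a description with no test. At 2, 4 and 12 weeks Cd74 had 8464 ± 2169 (SD, n = 3), 30536 ± 7273 (n = 4) and 14725 ± 1476 (n = 4) CPM. Il2ra had 129 ± 71.1, 942 ± 129 and 407 ± 30.7 CPM at these ages. For both genes every 12 week library lay between the ranges of the other ages.

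H2-Ab1 at 2, 4 and 12 weeks had 3336 ± 1345, 11274 ± 2131 and 7390 ± 871 CPM (SD, n = 3, 4 and 4), and H2-Eb1 had 2596 ± 911, 9365 ± 2119 and 6186 ± 815 CPM. H2-Aa had 2833 ± 812, 8580 ± 1941 and 8355 ± 1007 CPM, so its 12 week mean was within the spread of the 4 week libraries. In NOD the Cd74 mean was 3390 ± 490 (n = 4), 7665 ± 160 (n = 4), 18113 ± 1743 (n = 4) and 16132 ± 2066 (n = 3) CPM at 2, 4, 8 and 12 weeks, and Il2ra was at most 89.2 CPM in any of these NOD libraries.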

How the data were processed

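The study deposited 1 table of raw counts per gene for the whole series. The tools STAR, HTSeq and DESeq2 and the builds mm10 and GRCm38 are named, per the submitters' processing notes, and their settings are not given in the sources used here. The deposited counts are whole numbers with no normalization by the authors. Of 41092 lines, 534 exact repeats were removed, which left 40558 genes, 40254 with a GENCODE M21 (GRCm38) symbol. Strand use in the counting is not given in the sources used here, so reads of overlapping genes cannot be told apart.

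The 3 and 4 B6 libraries (7932056 to 11349106 counts) were fitted alone with edgeR 4.0.16 in R 4.3.3: filterByExpr by age (minimum count 10, minimum total 15), trimmed-mean scaling, robust quasi-likelihood test, Benjamini-Hochberg adjustment over all genes tested, called at adjusted p under 0.05. The NOD comparison used its own 8 libraries and the strain difference all 15. Lists (21 of cell programs, 14 of other cell types) were counted without a test. The members, lists and genes were chosen with earlier results of these data known. Genes were named by call, by a mean of at least 5 CPM without overlap of the groups, and, since no call survived every omission of a library, from genes meeting all other conditions. The 4 members of each list with the smallest p, check genes, and genes chosen after their values were seen were added. Alternatives covered scaling, filters, depth, the test (DESeq2 1.42.0, limma 3.58.1), the samples fitted, a replicate block, an endocrine covariate and omission of each library. The analysis was also run on simulated data that gave each gene the same spread at both ages. That run does not bear on the wider spread of the 4 week libraries. Counting error at this depth is small for the called genes. The RNA was amplified, the 4 week B6 libraries detected fewer genes, and the labels do not say whether input or amplification differed, so noise of amplification and the spread between pools cannot be told apart. Spearman correlations over genes between libraries of 1 age were at most 0.909, so none was counted as a repeat of another.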

Additional observations from a re-analysis of the deposited data

Results flagged for a closer look

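For this check 67 genes were listed, and those not tested between the ages, such as Ddx3y and Il2rb, were skipped. Of the rest, 5 had 1 of the 4 week B6 libraries apart from the other 3 by Dixon's gap test. Chance gives about 1 in 20 such groups. Il2ra was highest in replicate 2 (1053 CPM). Chaf1a was highest in replicate 4 (0.285 CPM, from 3 counts). H2-D1, a class I gene whose reads may be split with near-identical class I genes, was lowest in replicate 4 (788 CPM), and so was Cxcl16, a chemokine and scavenger receptor (2502 CPM). Ccl3 was lowest in replicate 1 (604 CPM).

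The change from 2 to 4 weeks differed between B6 and NOD for Sparc, by 3.83 on the log2 scale, and for Chaf1a, by -6.37.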

How the results depend on the processing

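The 5 calls, all higher, numbered 64 with no filter (62 higher, 2 lower), 3 with a mean of at least 20 CPM, 126 with DESeq2 (98 higher, 28 lower), 48 with limma-voom (48 higher, of the 5 only Il2ra called), 1451 in a fit of all 26 libraries (603 higher, 848 lower), 0 for a minimum log2 fold change of 1 (363 at an unadjusted p under 0.05) and 0 with the endocrine and acinar covariate (544 unadjusted). Added after seeing the data, abundant-gene scaling gave 3 and leaving out both 4 week libraries with the fewest genes gave 0 (1913 unadjusted). Leaving out 1 library gave 0 to 8 calls, 0 to 8 higher and 0 lower. The 5 genes kept log2 fold changes of 1.39 to 3.35 over these omissions. The cause of these differences was not tested.

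The strain difference called 7 genes with no filter, 1 with a mean of at least 20 CPM, 323 with DESeq2, 0 with limma-voom (1302 unadjusted), 176 in all 26 libraries, 1 at equal depth and 0 to 40 without 1 library. Sparc was lost in the omission of B6 2 week replicate 3 and with limma-voom. Chaf1a was lost with limma-voom, at equal depth, with the replicate block and without any 1 of 8 libraries, named with their p-values above.

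With the replicate number as a block, 22 genes were called in B6, all higher and including the 5, and 1 in the strain difference. The numbers do not pair the samples: same-numbered deviations correlated at 0.034, 0.002 and 0.065. Each 4 week library numbered 1 to 3 correlated best with its own number, a hint from the data only.

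Genes that were not called changed sign. H2-DMb2 was -0.0827 with upper-quartile scaling, -1.679 with limma-voom, -4.862 with the covariate, -0.101 with abundant-gene scaling, -1.588 without both libraries and -1.53 to 0.67 in single omissions. H2-Oa was -0.0800 without both libraries and -0.0601 to 1.22 in single omissions. With the covariate Il2rg was -0.38 and Sparc -0.42. Ins2 was -0.21 with upper-quartile scaling, -0.0348 with the stricter filter, -0.15 with a mean of at least 20 CPM, -0.0177 with limma-voom, -0.0084 at equal depth, -0.28 with abundant-gene scaling and -0.293 to 0.45 in single omissions. Ins1 was 0.0455 with the replicate block and -0.48 to 0.34 in single omissions.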
